A study of Mus musculus with 10 samples.

Results

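The complement inhibitors Cd59a, Cd46 and Cd55 and the central complement protein C3 were examined in whole brains of adult mice whose mothers had drunk ethanol. Members were the probe sets whose single annotated gene symbol was one of these 4 genes. Of 21789 probe sets with 1 gene symbol, 3 were members, 1 each for Cd59a (10474229), Cd46 (10361270) and Cd55 (10357488). No probe set was named C3 through the annotation, and C3 is not analysed here.

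Each array, of an Affymetrix whole-transcript design, received cDNA made from 200 ng of brain RNA of C57BL/6J males killed on postnatal day 70. In the ethanol groups the mothers had 10% ethanol in their drinking water from mating until the pups reached postnatal day 10, and in the control groups the mothers had water alone. Experiment 1 had 2 ethanol and 2 control arrays, each a pool of 3 brains, and experiment 2 had 3 ethanol and 3 control arrays, each a pool of 2 brains. Exposure thus spanned gestation and the first days after birth. Pooling in experiment 1 was meant to lessen litter effects, per the series' design text, and the sources used here do not say which pools shared a litter.

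Complement is a cascade of plasma and tissue proteins that marks cells and debris by attaching fragments of C3 and that can end in the membrane attack complex, a pore built from the terminal components. Host cells carry inhibitors on their surface that stop the cascade at set steps. Cd55, decay-accelerating factor, breaks up the enzymes that cleave C3. Cd46, membrane cofactor protein, helps the protease factor I to degrade deposited C3b and C4b, and in mice it is best known from the testis. Cd59a blocks the last step, the insertion of C9 into the pore. Cd59a and Cd55 are held on the membrane by a glycosylphosphatidylinositol (GPI) anchor. In the brain the cascade is known for its part in the removal of synapses by microglia during development.

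The members were selected on the log2 values of these same arrays: Cd59a had already stood out for its ethanol difference over both experiments, and Cd46 ranks high for the difference between the experiments. The ethanol differences of the members are therefore given as a description, without a test.

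The deposited log2 levels ran from 4.27 to 15.4, with array medians of 6.99 to 7.05. The experiments had equal means, probe set by probe set, to within 5.83e-05 log2 units, so levels can be compared within an experiment and not between the experiments. Over all 21789 probe sets limma called 0 (0%) at adjusted p 0.05 for the ethanol difference over both experiments, 0 (0%) in experiment 1, 0 (0%) in experiment 2 and 0 (0%) for the difference between experiments. At an unadjusted p under 0.05 the numbers were 2703 (12.4%), 1951 (8.95%), 2172 (9.97%) and 1432 (6.57%). The tissue label was borne out by the marker lists, with mean log2 levels per array of 11.6 to 11.7 for 10 neuronal genes, 10.7 to 10.8 for 10 astrocyte genes and 11.0 to 11.1 for 10 oligodendrocyte genes. Markers of tissue next to the brain stood apart on some arrays, those of the pituitary on 3 of the 5 ethanol arrays and on 0 of the 5 control arrays. The mean of 10 pituitary genes was 6.87 to 7.52 on the ethanol arrays against 5.74 to 5.89 on the control arrays of experiment 1, and 6.21 to 7.95 against 6.10 to 6.43 in experiment 2, where ethanol replicate 2 held the highest value. The mean of 12 olfactory mucosa genes reached 7.03 on control replicate 2 of experiment 2, and was 5.46 to 6.09 on the other 5 arrays of that experiment.

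The DNA just before the transcription start of the 3 measured genes is shown to set their promoters side by side. Whether these sequences bear on the ethanol differences was not tested. The sequences are the 250 bases before the start, 5′ to 3′ on the gene's strand, from RefSeq on GRCm38.p6. Capitals mark matches, on either strand, to the motifs named after the sequences.
Cd59a, chr2:104095551-104095800, plus strand: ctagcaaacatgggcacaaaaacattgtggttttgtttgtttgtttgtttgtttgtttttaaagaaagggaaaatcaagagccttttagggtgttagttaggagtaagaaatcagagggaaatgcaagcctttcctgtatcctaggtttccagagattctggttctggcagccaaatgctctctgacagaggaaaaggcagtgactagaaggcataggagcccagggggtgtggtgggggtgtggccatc
Cd46, chr1:195092249-195092498, minus strand: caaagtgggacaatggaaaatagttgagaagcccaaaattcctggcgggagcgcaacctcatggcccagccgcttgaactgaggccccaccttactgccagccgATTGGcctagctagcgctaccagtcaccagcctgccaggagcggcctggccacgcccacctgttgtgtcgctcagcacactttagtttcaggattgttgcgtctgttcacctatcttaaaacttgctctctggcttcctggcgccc
Cd55, chr1:130462745-130462994, minus strand: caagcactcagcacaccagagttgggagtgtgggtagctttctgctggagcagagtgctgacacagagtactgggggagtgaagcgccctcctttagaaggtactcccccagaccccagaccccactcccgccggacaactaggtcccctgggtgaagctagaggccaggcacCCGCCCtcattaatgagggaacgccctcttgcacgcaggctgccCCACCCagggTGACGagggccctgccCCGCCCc

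The Cd59a window held no CpG dinucleotide, the Cd46 window 10 and the Cd55 window 8. The middle 50% of 32851 such RefSeq windows held 2 to 16. The GC content was 44.8% for Cd59a, 56.8% for Cd46 and 64.0% for Cd55, against a median of 52.4%. The motifs were searched on both strands. The TATA box, where the basal transcription machinery binds, was searched as TATAAA. For the element bound by the factor NF-Y the letters searched were CCAAT. For the GC box, bound by Sp1 and its relatives, they were GGGCGG. For the motif of Krüppel-like factors, often named a CACCC box, the search used CCACCC. The core of the cAMP response element was searched as TGACG, the core bound by ETS factors as CCGGAAGT and the interferon-gamma activated site as TTCNNNGAA. Cd46 had 1 NF-Y element, present in 33.8% of windows. Cd55 had 2 GC boxes, 1 Krüppel-like factor motif and 1 cAMP response element core, found in 32.7%, 28.1% and 17.8% of windows. Those matches did not overlap. Cd59a matched none of these motifs, which says only that these letters are not in this window. The TATA box, ETS core and interferon-gamma activated site, present in 12.4%, 2.88% and 7.02% of windows, matched in none of the 3.

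Cd59a, the inhibitor of the membrane attack complex, was lower on the ethanol arrays of both experiments. In experiment 1 its log2 level was 9.61 and 9.53 on the ethanol arrays, against 9.99 and 9.84 on the control arrays. In experiment 2 it was 9.69, 9.69 and 9.44 on the ethanol arrays, against 9.86, 10.00 and 9.78 on the control arrays. Every ethanol array lay below every control array of its experiment. The distance between the highest ethanol and the lowest control array was 0.23 log2 units in experiment 1 and 0.10 in experiment 2. In experiment 2 ethanol replicate 3 was the lowest array and control replicate 2 the highest.

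The Cd59a group means in experiment 1 were 9.57 ± 0.05 on ethanol and 9.91 ± 0.11 on control arrays (SD, n = 2 each), a difference of -0.34 ± 0.10 log2 units (moderated SE from limma), or 0.788 of the control level. In experiment 2 they were 9.60 ± 0.14 on ethanol and 9.88 ± 0.11 on control arrays (SD, n = 3 each), a difference of -0.28 ± 0.08, or 0.824 of the control level. Over both experiments the difference was -0.31 ± 0.06. The differences of the experiments lay 0.06 ± 0.13 log2 units apart, less than the SE of that comparison. Of all named probe sets 614 of 21789 (2.82%) likewise had every ethanol array below every control array in both experiments, and among the 25% of probe sets with the highest mean level, to which Cd59a belongs, the share was 275 of 5447 (5.05%).

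**Figure D1:**
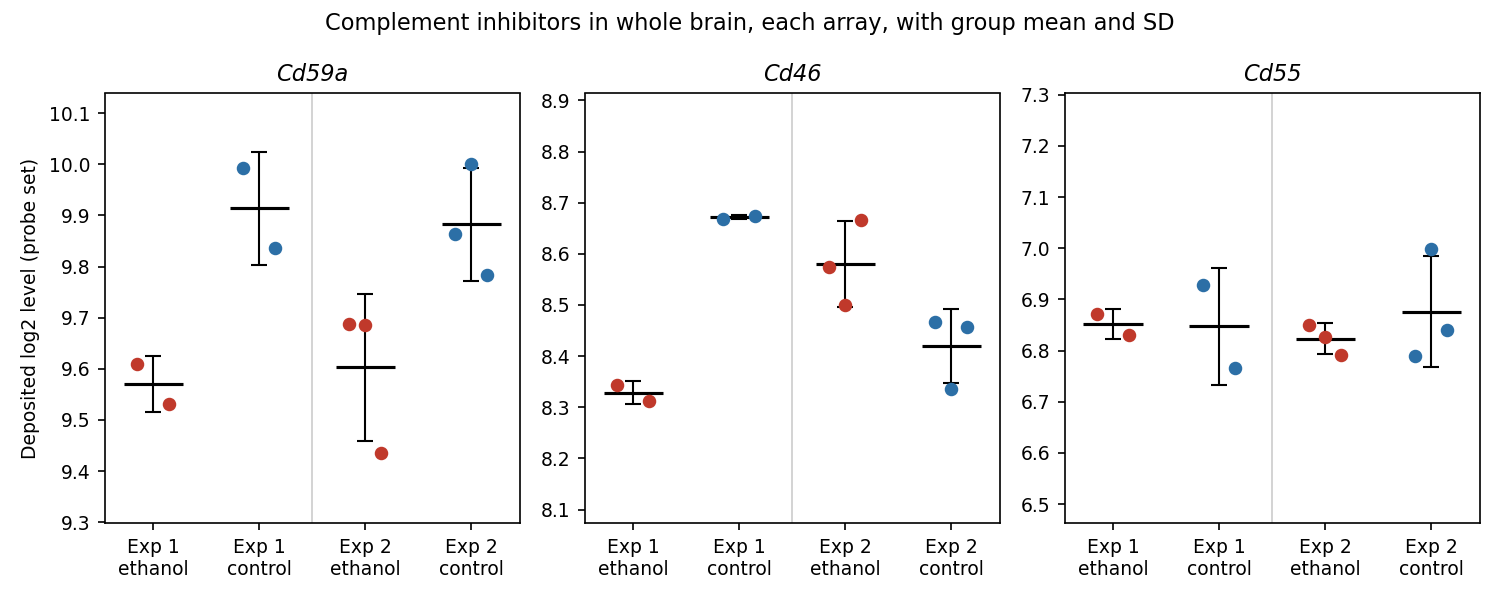
Deposited log2 level (vertical axis) of the Cd59a, Cd46 and Cd55 probe sets on each array, with experiment and treatment on the horizontal axis; points are arrays (pools of brains), horizontal bars group means and error bars SD, and each vertical axis spans the same range of log2 units. Cd59a lies lower on all 5 ethanol arrays than on the controls of their experiment, Cd46 is lower with ethanol in experiment 1 and higher in experiment 2, and the Cd55 groups overlap.

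Most bright probe sets were slightly lower on the ethanol arrays, and this stands beside the Cd59a values. Of the 5447 probe sets with the highest mean levels 77.5% had a lower value on the ethanol arrays over both experiments, with a median difference of -0.04 log2 units, and 5% of them were at or below -0.13. Of the 5448 dimmest probe sets 20.7% were lower. The upper quartile of the array values differed by -0.03 log2 units and the lower quartile by 0.05, each with p = 0.0167 by an exact two-sided permutation of treatment within experiments, the smallest value possible with its 120 assignments. After quantile normalization, which gives all arrays the same quartiles, the Cd59a difference was -0.29 in experiment 1 and -0.25 in experiment 2.

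Cd46, the cofactor for C3b and C4b degradation, differed in opposite directions in the experiments. In experiment 1 its log2 level was 8.34 and 8.31 on the ethanol arrays, against 8.67 and 8.67 on the control arrays. In experiment 2 it was 8.57, 8.50 and 8.67 on the ethanol arrays, against 8.47, 8.34 and 8.46 on the control arrays. The groups did not overlap in either experiment, with ethanol below control in the first and above it in the second.

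The Cd46 means in experiment 1 were 8.33 ± 0.02 on ethanol and 8.67 ± 0.004 on control arrays (SD, n = 2 each), and the difference was -0.34 ± 0.07 log2 units (SE), or 0.788 of the control level. In experiment 2 they were 8.58 ± 0.08 on ethanol and 8.42 ± 0.07 on control arrays (SD, n = 3 each), and the difference was 0.16 ± 0.06, or 1.12 times the control level. The ethanol difference in experiment 2 exceeded that in experiment 1 by 0.50 ± 0.09 log2 units. Over both experiments the difference was -0.04 ± 0.08, a mean of opposite values. Of all named probe sets 227 of 21789 (1.04%) were likewise without overlap and lower in experiment 1 and higher in experiment 2, and 424 (1.95%) were without overlap in opposite directions either way round.

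**Figure D2:**
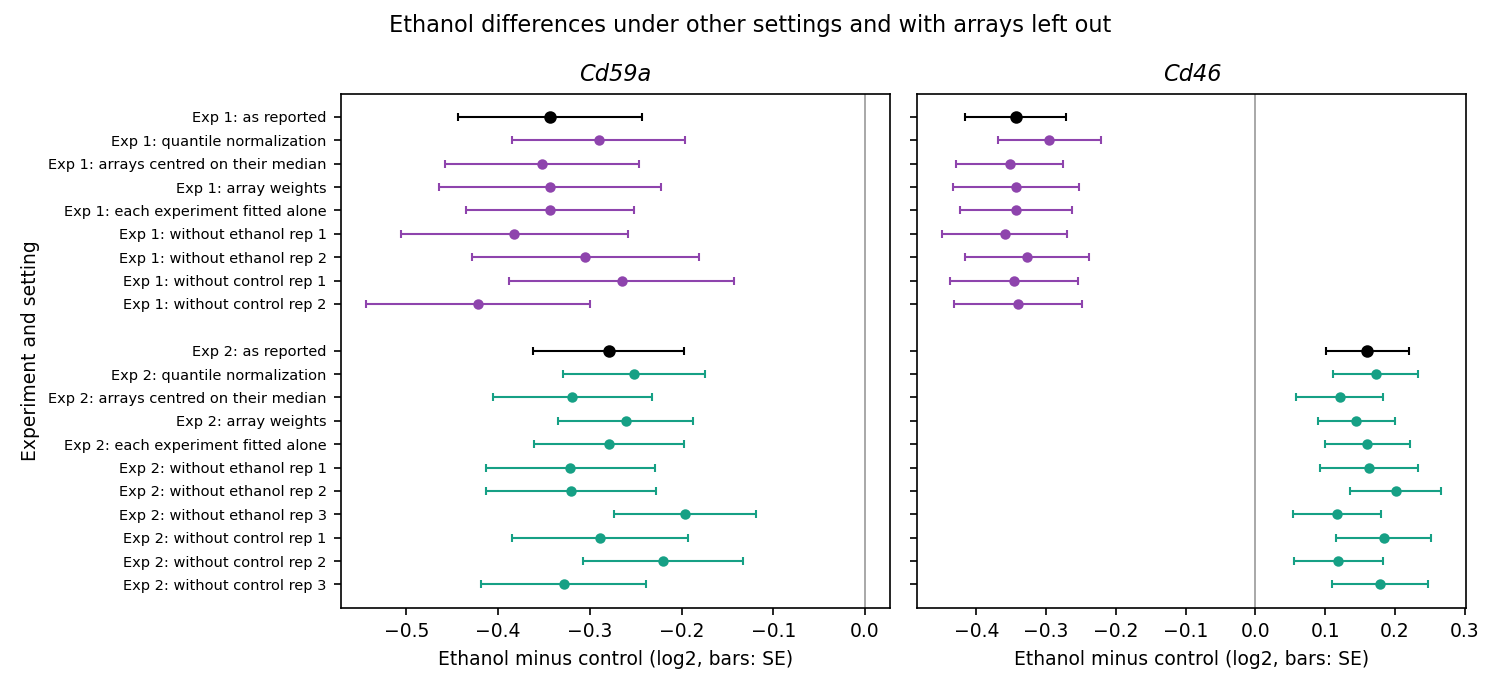
Ethanol minus control difference in log2 units (horizontal axis) of Cd59a and Cd46 in experiment 1 (upper block) and experiment 2 (lower block), under the settings named on the vertical axis; points are estimates and bars their SE. Each Cd59a estimate is below 0 in both experiments, while each Cd46 estimate is below 0 in experiment 1 and above 0 in experiment 2. As the groups did not overlap, these signs could not change with an array left out or weighted.

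Cd55, decay-accelerating factor, did not separate the treatments. Its log2 level in experiment 1 was 6.87 and 6.83 on the ethanol arrays, against 6.93 and 6.77 on the control arrays. In experiment 2 it was 6.85, 6.83 and 6.79 on the ethanol arrays, against 6.79, 6.998 and 6.84 on the control arrays. In each experiment the ethanol arrays lay within the range of the controls. The difference was 0.004 ± 0.08 log2 units (SE) in experiment 1, -0.05 ± 0.07 in experiment 2 and -0.03 ± 0.05 over both. The control arrays spread more than the ethanol arrays, with an SD of 0.03 on ethanol and 0.11 on control arrays in experiment 1 (n = 2 each) and of 0.03 and 0.11 in experiment 2 (n = 3 each). All 3 probe sets passed a filter at the 25th percentile of mean level, and Cd59a and Cd46 passed one at the median.

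Within the groups Cd59a and Cd55 varied together from array to array, and Cd46 moved opposite to them. Once each group mean was removed, Pearson's r over the 10 arrays was 0.74 between Cd59a and Cd55, -0.78 between Cd59a and Cd46 and -0.59 between Cd46 and Cd55. With the group means left in, these values were 0.53, 0.07 and -0.37. These are descriptions over 10 arrays that share the scaling and the centring of each experiment.

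Each member has a close relative next to it in the genome, by the order of coding genes in RefSeq. Cd59b, the second mouse copy of Cd59 and known mainly from testis, lies beside Cd59a. It differed by 0.05 ± 0.09 log2 units (SE) in experiment 1, -0.17 ± 0.07 in experiment 2 and -0.08 ± 0.06 over both (limma adjusted p = 0.584). Cr1l, which encodes Crry, the widely expressed mouse inhibitor with the activities of Cd46 and Cd55, lies beside Cd46. Cr1l differed by 0.11 ± 0.07 in experiment 1 and 0.01 ± 0.05 in experiment 2 (0.05 ± 0.04 over both, limma adjusted p = 0.637). Cd55b, a transmembrane copy, lies beside Cd55 and differed by -0.02 ± 0.04 over both experiments (limma adjusted p = 0.903). These 3 neighbours did not pass the threshold, and whether probes of a copy bind RNA of the other was not tested.

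Of the other complement genes 51 were measured, and 0 passed adjusted p 0.05 by limma for the ethanol difference over both experiments. Without adjustment, 3 of the 51 were higher and 2 lower at p under 0.05, beside 4.72% and 7.68% of all named probe sets. Their median difference was 0.02 log2 units, beside -0.01 for all named probe sets. Of the 51, 32 were higher and 19 lower, but the balance depends on scaling, with 22 higher and 29 lower after quantile normalization and 24 and 27 with arrays centred on their median. By mean level, 25 of the 51 lay among the lowest 25% of probe sets, of which 79.3% were higher. Among the genes named below, Cfi, Cr2, C1rl, Fcnb, Cfb, C8b, C8g and Hc lay there. The lists behind these counts were drawn up with earlier results of these data known.

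Among other membrane-bound inhibitors 6 of 10 genes were higher, with a median of 0.01. After quantile normalization 7 of 10 were higher, and 4 of 10 with arrays centred on their median. The smallest p were those of Csmd2 (0.08 ± 0.04, limma adjusted p = 0.421) and Csmd1 (0.07 ± 0.05, adjusted p = 0.542), large neuronal membrane proteins with complement control repeats, and Sez6l (-0.06 ± 0.04, adjusted p = 0.553), a related neuronal protein.

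Among soluble inhibitors 3 of 5 genes were lower, and 4 of 5 either after quantile normalization or with arrays centred on their median. Serping1, the C1 inhibitor, had the smallest p of the 51 genes, with a difference of -0.28 ± 0.07 over both experiments (limma adjusted p = 0.292). In experiment 2 its log2 level was 8.01, 7.97 and 7.95 on the ethanol arrays, against 8.33, 8.43 and 8.42 on the control arrays. In experiment 1 it was 8.08 and 8.20 on the ethanol arrays, against 8.33 and 8.12 on the control arrays, so the groups overlapped there. Vtn, vitronectin, which binds terminal complexes, differed by -0.09 ± 0.05 (adjusted p = 0.465), and Cfi, the factor I protease for which Cd46 is a cofactor, by 0.07 ± 0.05 (adjusted p = 0.561).

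Among receptors 5 of 8 genes were higher, but 2 of 8 after quantile normalization and 4 of 8 with arrays centred on their median. C3ar1, the receptor for the C3a fragment, expressed in brain by microglia, had the smallest p of the list and differed by -0.17 ± 0.05 (limma adjusted p = 0.306). Its log2 level in experiment 1 was 7.82 and 7.79 on the ethanol arrays, against 8.02 and 7.90 on the control arrays. In experiment 2 it was 7.87, 7.74 and 7.75 on the ethanol arrays, against 8.03, 7.89 and 7.9997 on the control arrays. The groups did not overlap in either experiment, as for 2.82% of all named probe sets in this direction. Cr2, the complement receptor of B cells, differed by 0.08 ± 0.04 (adjusted p = 0.439), and Itgb2, the beta chain of the receptors for degraded C3b, by 0.10 ± 0.06 (adjusted p = 0.479).

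In the classical pathway 5 of 10 genes were higher and 5 lower, against 3 and 7 either after quantile normalization or with arrays centred on their median. C1qa, a chain of the recognition molecule C1q, differed by -0.12 ± 0.06 (limma adjusted p = 0.424), and the proteases C1rl and C1ra by 0.10 ± 0.07 (adjusted p = 0.562) and 0.09 ± 0.06 (adjusted p = 0.571). In the lectin pathway 6 of 9 were higher, but 3 of 9 after quantile normalization and 5 of 9 with arrays centred on their median. The collectin Colec10 differed by 0.21 ± 0.08 (adjusted p = 0.357), the ficolin Fcnb by 0.13 ± 0.05 (adjusted p = 0.363) and the scavenger collectin Colec12 by -0.10 ± 0.05 (adjusted p = 0.417). Of the alternative pathway, Cfp, properdin, which stabilises the C3-cleaving enzyme, differed by 0.16 ± 0.11 (adjusted p = 0.543) and Cfb, factor B, by -0.01 ± 0.06 (adjusted p = 0.942). The Cfp value is a mean of opposite values, -0.10 in experiment 1 and 0.34 in experiment 2, where its groups overlapped.

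The terminal components, from which the membrane attack complex is built, were higher in 7 of 7 genes, with a median of 0.06. Of the 7, 6 lay among the 25% of probe sets with the lowest mean level, of which 79.3% were higher. After quantile normalization 5 of 7 were higher, with a median of 0.02, and 6 of 7 with arrays centred on their median. C8b, a chain of C8, had the smallest p (0.16 ± 0.05, limma adjusted p = 0.311), followed by C8g (0.07 ± 0.04, adjusted p = 0.543) and Hc, which encodes C5 (0.08 ± 0.06, adjusted p = 0.606).

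**Figure D3:**
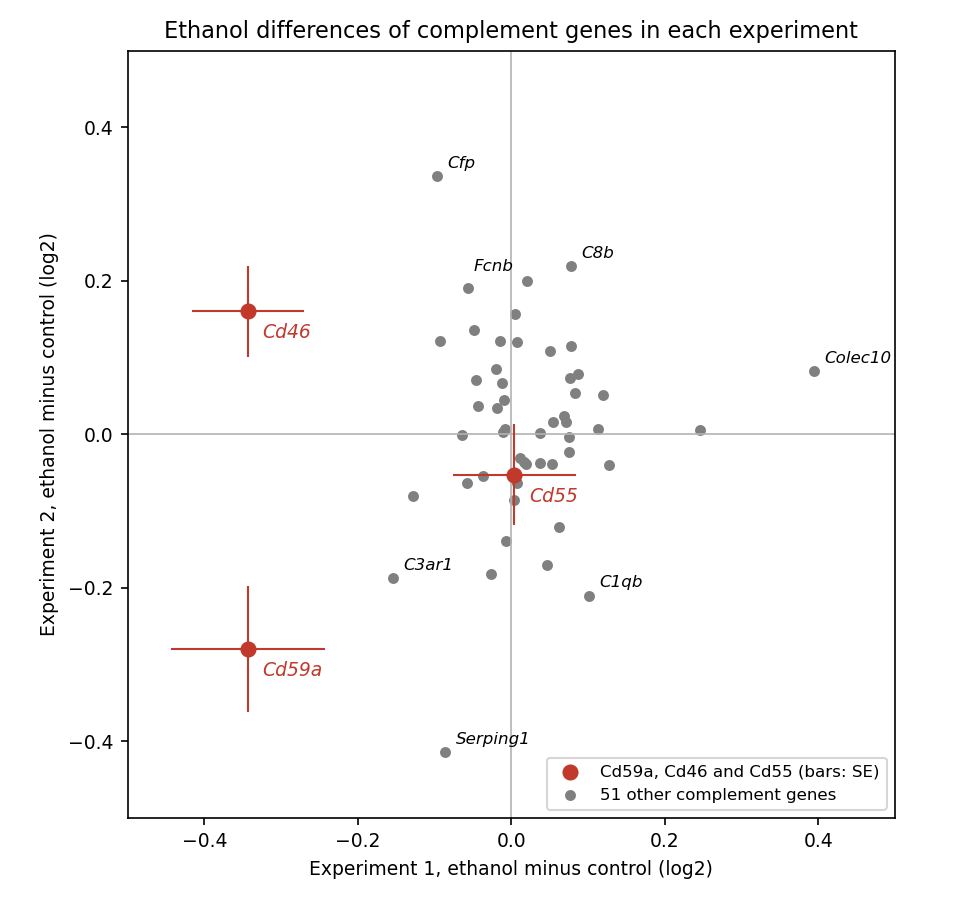
Ethanol minus control difference in log2 units in experiment 1 (horizontal axis) against experiment 2 (vertical axis) for the 3 measured members, with SE bars, and for 51 other complement genes in grey. Cd59a lies at -0.34 and -0.28, Cd46 at -0.34 and 0.16, and Cd55 near 0; of the grey points, Serping1 lies lowest in experiment 2.

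Genes for the synthesis and attachment of the GPI anchor, on which Cd59a and Cd55 depend, were lower in 24 of 27, with a median difference of -0.07 log2 units. None passed adjusted p 0.05 by limma. At an unadjusted p under 0.05, 9 were lower and 1 higher, beside 7.68% lower and 4.72% higher among all named probe sets. Those shares are not matched for mean level. By mean level, 12 of the 27 lay between the median and the 75th percentile, a range in which 77.3% of all probe sets were lower (median -0.05). Another 9 lay above it, as did Cd59a, where 77.5% were lower (median -0.04). After quantile normalization 24 of 27 were again lower, with a median of -0.07. The smallest p were those of Pign, an ethanolamine phosphate transferase (-0.19 ± 0.05, limma adjusted p = 0.306), Pigf, a partner of the transferases that add ethanolamine phosphate to later mannoses of the anchor (-0.14 ± 0.04, adjusted p = 0.315), and Pgap2, which remodels the lipid of finished anchors (-0.13 ± 0.04, adjusted p = 0.315).

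Genes of reactive astrocytes, among which C3 is a known marker, were lower in 11 of 18, with a median of -0.05 and 0 past the threshold by limma (1 higher and 5 lower at an unadjusted p under 0.05, beside the same 4.72% and 7.68%). After quantile normalization 14 of 18 were lower, and 12 of 18 with arrays centred on their median. By experiment, 10 of 18 were lower in the first and 12 of 18 in the second. The list mean was slightly higher on ethanol in experiment 1 (7.446 to 7.456 against 7.435 to 7.436 on control arrays). In experiment 2 it was lower (7.40 to 7.41 against 7.46 to 7.51). Serpina3n, a secreted protease inhibitor, differed by -0.18 ± 0.06 (limma adjusted p = 0.326), Vim, vimentin, by -0.15 ± 0.06 (adjusted p = 0.348) and Cp, ceruloplasmin, by -0.16 ± 0.06 (adjusted p = 0.350). Cytokines, receptors and transcription factors that act upstream of C3 were lower in 8 of 14, with a median of -0.01 and 0 past the threshold by limma (1 each way at an unadjusted p under 0.05). Of these, Tnfrsf1a, a receptor for tumour necrosis factor, differed by -0.22 ± 0.05 (adjusted p = 0.292), Il1b, interleukin-1 beta, by 0.12 ± 0.05 (adjusted p = 0.375) and Rela, an NF-kappa-B subunit, by -0.11 ± 0.06 (adjusted p = 0.429).

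In each experiment the array with the lowest Cd59a level was also the array with the lowest cerebellar neuron markers. Cerebellar neuron markers were lower in 11 of 12, with a mean log2 level of 9.81 to 10.13 on ethanol against 10.25 to 10.29 on control arrays in experiment 1, and 9.89 to 10.17 against 10.13 to 10.22 in experiment 2. Set against the control mean, their median was lowest in experiment 1 on ethanol replicate 2 (-0.47), where Cd59a stood at -0.38. In experiment 2 it was lowest on ethanol replicate 3 (-0.28), where Cd59a stood at -0.45, and these were the lowest Cd59a values of their experiments. On ethanol replicate 2 of experiment 2 the cerebellar median was -0.003 and Cd59a -0.20. Without ethanol replicate 2 of experiment 1 the Cd59a difference in that experiment was -0.30, and without ethanol replicate 3 of experiment 2 it was -0.20 there. The part of cerebellar tissue in the result was not tested.

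Markers of the meninges and fibroblasts were lower in 10 of 12 and those of the choroid plexus and ependyma in 11 of 12. At an unadjusted p under 0.05, 3 and 4 of these genes were lower, as were 7 of the 12 cerebellar genes. Of all named probe sets 7.68% were, a share not matched for mean level. None of the genes of these 3 lists passed adjusted p 0.05 by limma. In experiment 2 the meningeal mean was 7.80 to 7.85 on ethanol against 7.98 to 8.01 on control arrays, and the choroid plexus mean 7.57 to 7.68 against 7.81 to 7.89. In experiment 1 these means were 7.89 to 7.94 on ethanol against 7.89 to 7.93 on control arrays, and 7.71 to 7.74 against 7.72 to 7.75. The Cd59a difference was -0.34 ± 0.10 in experiment 1 and -0.28 ± 0.08 in experiment 2. Without control replicate 2 of experiment 2, the array with the high olfactory mucosa mean, the Cd59a difference in experiment 2 was -0.22 and that of Cd46 0.12. The pituitary mean was above the controls on both ethanol arrays of experiment 1 (7.52 and 6.87), where Cd59a stood at -0.30 and -0.38 and Cd46 at -0.33 and -0.36 against the control mean. It was also above them on ethanol replicate 2 of experiment 2 (7.95), where Cd59a stood at -0.20 and Cd46 at 0.08. On ethanol replicates 1 and 3 of experiment 2 it was within the range of the controls (6.21 and 6.23), with Cd59a at -0.20 and -0.45 and Cd46 at 0.15 and 0.25. The part of meningeal, choroid plexus, olfactory or pituitary tissue in these values was not tested. In RNA of whole brain, fewer cells of a type and less RNA per cell cannot be told apart.

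The remaining cell type lists were lower in 8 of 10 oligodendrocyte genes (median -0.06), 7 of 10 astrocyte genes (-0.03), 7 of 11 microglia genes (-0.03), 7 of 9 endothelial genes (-0.02), 5 of 10 neuronal genes (-0.004) and 10 of 12 olfactory mucosa genes (-0.13). The 5447 brightest probe sets, of which 77.5% were lower, held all 10 oligodendrocyte genes, 9 of 10 astrocyte and 9 of 10 neuronal genes. After quantile normalization 6 of 10 oligodendrocyte, 6 of 10 astrocyte and 5 of 10 neuronal genes were lower. So were 6 of 11 microglia, 6 of 9 endothelial and 11 of 12 olfactory mucosa genes. Without that normalization, some of the counts differed between the experiments. Of the microglia genes 2 of 11 were lower in experiment 1 and 7 of 11 in experiment 2, and of the olfactory mucosa genes 2 of 12 and 11 of 12. The olfactory count in experiment 2 goes with control replicate 2, whose median stood at 0.78 from the control mean, while the ethanol arrays stood at -0.18, -0.32 and -0.31 and the other controls at -0.35 and -0.43. Blood markers were higher in 6 of 6 (0.07) and pituitary markers in 9 of 10 (0.28). None of these genes passed adjusted p 0.05 by limma. At an unadjusted p under 0.05, 7 pituitary genes were higher, beside 4.72% of all named probe sets, and each of the other lists held 0 to 2 genes.

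**Figure D4:**
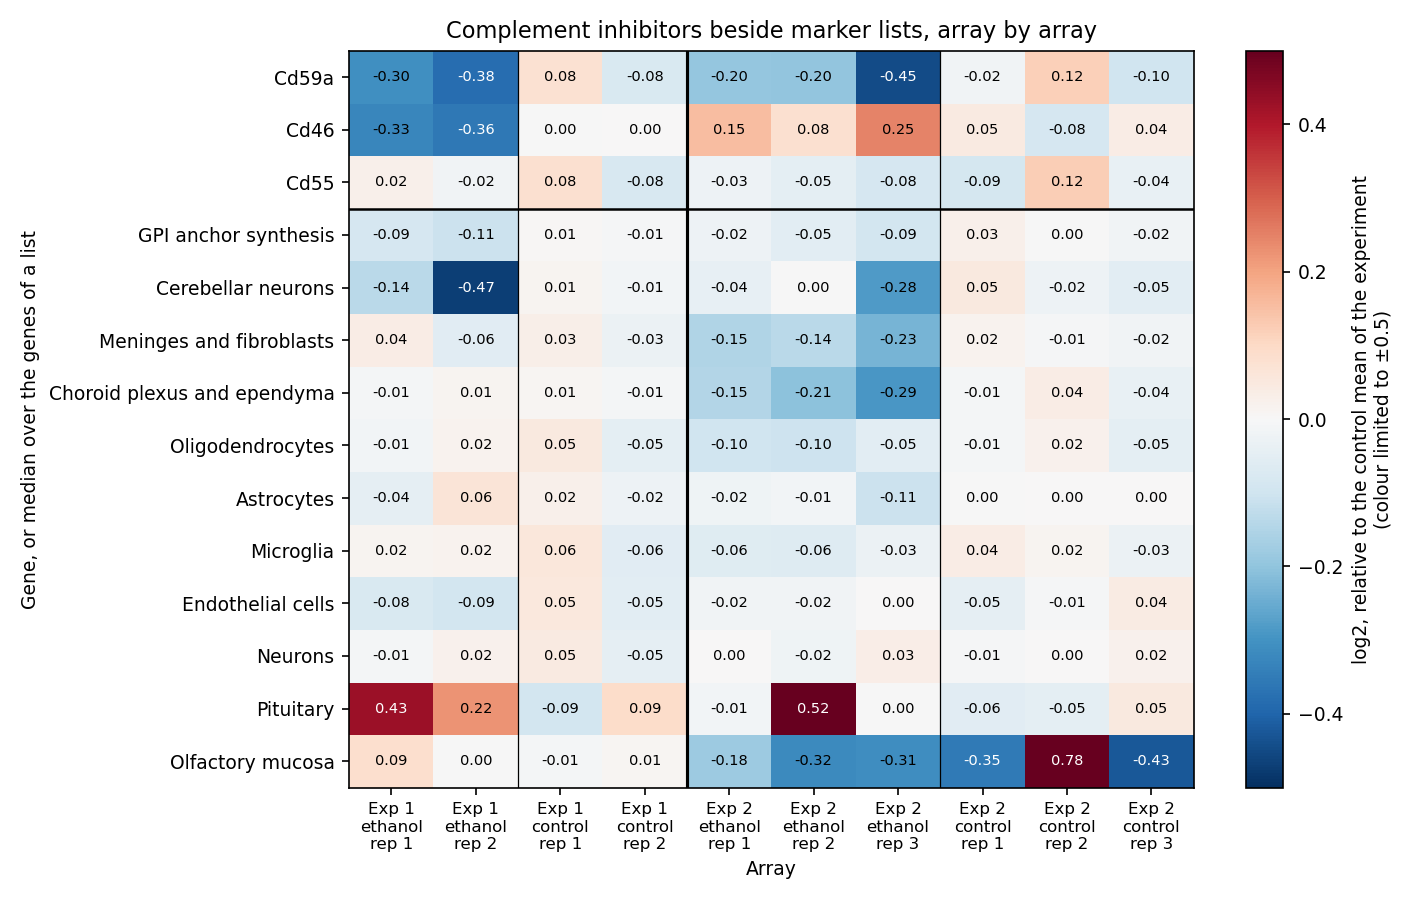
Log2 level minus the mean of the controls in that experiment (colour and number) for Cd59a, Cd46 and Cd55 (top 3 rows) and, below them, the median over the genes of each list, on each of the 10 arrays (columns). Cd59a is negative on all 5 ethanol arrays, Cd46 is negative on the 2 ethanol arrays of experiment 1 and positive on the 3 of experiment 2, and the cerebellar median is lowest in experiment 1 on ethanol replicate 2 (-0.47) and in experiment 2 on ethanol replicate 3 (-0.28).

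The genes whose values most resembled those of each member were ranked by Pearson's r over the 10 arrays among 17366 genes with a name other than a clone or predicted name. For Cd59a they were Eps8, an actin regulator (r = 0.973), Calb1, the calcium-binding protein calbindin of Purkinje and other neurons (0.971), and Strn3, a striatin scaffold protein (0.961). Calb1 was 12.23 and 12.21 on the ethanol arrays against 12.37 and 12.30 on the control arrays of experiment 1, and 12.28, 12.28 and 12.13 against 12.32, 12.38 and 12.27 in experiment 2. Its difference over both experiments was -0.10 ± 0.04 log2 units, against -0.31 ± 0.06 for Cd59a. With group means removed r was 0.988, over values that are likewise not independent. Calb1 is also on the list of cerebellar markers above.

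For Cd46 the closest were Zxdc, a zinc finger protein (r = 0.960), Tet3, a 5-methylcytosine dioxygenase (0.943), and Sun5, a testis protein (0.942). Tet3 differed by -0.25 ± 0.06 log2 units in experiment 1 and 0.05 ± 0.05 in experiment 2. Its level in experiment 1 was 7.97 and 8.02 on the ethanol arrays against 8.25 and 8.24 on the control arrays. In experiment 2 it was 8.13, 8.09 and 8.21 on the ethanol arrays against 8.10, 8.05 and 8.14 on the control arrays, and the groups overlapped. For Cd55 the closest were Slc35g1 (r = 0.946), Cfap61 (0.916) and Zfp868 (0.914). These values are the highest of 17366 from 10 arrays that share scaling and the centring of each experiment, and are given as a description.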

How the data were processed

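The authors' deposited log2 values, 35556 probe sets on 10 arrays with no missing value, were used as given. The submitters' processing notes name Partek 6.6. Not given in the sources used here are background correction, normalization and genome build. Arrays were grouped from their titles, and the replicates are pools of different mice. p-values measure the spread between pools.

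Gene names came from the array platform's annotation. It lists 23410 probe sets, of which 21789 with 1 symbol (19938 genes) were tested and 1621 have several. Their symbols were checked by Entrez identifier against RefSeq (GRCm38.p6), which matched 21698 and changed 0. Of several probe sets of a gene, that with the highest mean was used.

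Differences are ethanol minus control, from limma 3.58.1 in R 4.3.3 (lmFit, eBayes) with Benjamini-Hochberg adjustment over all 21789. The fit of both experiments together used experiment and treatment as additive terms, and that within experiments had 4 group means. The number of arrays limits the precision, with a median SE of 0.0519. The procedure was tested on simulated data. Genes named were every member, the 3 smallest p of each complement, GPI anchor, astrocyte and cytokine list, and the 3 genes most like each member. Neighbours and array patterns were named after their values were seen. The members and lists were chosen with earlier results of these data known.

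Promoters came from RefSeq (GRCm38.p6), matched by symbol for 3 of 3 genes. Figures were drawn with matplotlib 3.10.9.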

Additional observations from a re-analysis of the deposited data

Results flagged for a closer look

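The ethanol difference of Cd46 was opposite in the experiments, with both ethanol arrays of experiment 1 below its controls and all 3 of experiment 2 above theirs. The difference in experiment 2 minus that in experiment 1 was 0.50 ± 0.09 log2 units (SE). As Cd46 ranks high for this very contrast, the difference was not tested, and 1.95% of named probe sets showed opposite directions without overlap.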

How the results depend on the processing

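The Cd59a difference was below 0 in 15 of 15 alternatives over both experiments (-0.34 to -0.26), 8 of 8 in experiment 1 and 10 of 10 in experiment 2. Cd46 kept its sign in 8 of 8 in experiment 1 (-0.36 to -0.30) and 10 of 10 in experiment 2 (0.12 to 0.20). Because the groups did not overlap, leaving out or weighting arrays could not change any of these signs. Blocking by replicate number or fitting each experiment alone repeated the main difference. Only quantile normalization and centring on the median could have changed a sign, so the counts are a description. Over both experiments Cd46 (-0.04) changed sign in 5 of 15: it was 0.0056 with array weights, and ranged from -0.0923 to 0.0103 with an array left out, above 0 without any 1 of the 4 arrays of experiment 1. The difference between experiments ranged from -0.0139 to 0.147 for Cd59a with an array left out, below 0 without control replicate 1 of experiment 1. Cd55 kept its sign in 14 of 15 over both experiments and 4 of 8 in experiment 1.

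The count of named probe sets called by limma was 0 and became 1 in experiment 1 with each experiment fitted alone and 2 in experiment 2 with array weights. With an array left out it ranged from 0 to 1 over both experiments, 0 to 235 in experiment 1, 0 to 1 in experiment 2 and 0 to 94 for the difference between experiments, the 235 and 94 without ethanol replicate 1 of experiment 1, where the lone remaining array is assumed to vary like the other groups. For the 51 complement genes, counted over both experiments alone, it was 0 in each alternative run. At an unadjusted p under 0.05 these 51 held 3 higher and 2 lower, against 1 and 5 with arrays centred on their median, and 0 higher among those above the median level. With an array left out they held 2 to 5 higher and 2 to 7 lower, with 5 and 7 without control replicate 2 of experiment 1 and 4 lower without ethanol replicate 1 of that experiment.

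Replicate numbers were not treated as pairs, and these values cannot settle whether they pair the samples. Deviations of same-numbered arrays correlated at -0.05 in experiment 1, where 2 arrays per group deviate by equal and opposite amounts. In experiment 2 the same-numbered values were 0.01, -0.15 and 0.23, and not every array correlated best with its own number. With the replicate number as a block, the Cd59a, Cd46 and Cd55 differences over both experiments were -0.31, -0.04 and -0.03, and limma called 0. Their SE were 0.046, 0.089 and 0.048 with the block, against 0.062, 0.083 and 0.050 without it. The members have no other probe sets, so that alternative gave no value.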
